A study of Mus musculus with 9 samples.

Results

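The troponin genes analysed here are Tnnt1, Tnnt2, Tnnt3, Tnni1, Tnni2, Tnnc1 and Tnnc2, 7 of the 47728 genes counted in each library. They were taken by name, as the fast, slow and cardiac isoforms of the 3 subunits of the complex, and all 7 were found in the 9 libraries by their Ensembl identifiers. RNA came from C2C12, which the titles of the samples spell CSC12. It is a line of mouse myoblasts whose cells leave the cell cycle and fuse into myotubes when the growth medium is replaced by a differentiation medium. There were 3 genotypes, control cells (titled Neg), cells with a knockdown of Fkbp4 and cells with a knockdown of Fkbp5, each collected at days 0, 3 and 5. All groups were grown in 10% fetal bovine serum until day 0 and then received 1% insulin-transferrin-selenium. For the later medium changes the labels name DMEM with HS, an abbreviation they do not spell out. The labels give 1 library per genotype and day, and do not say how the genes were knocked down or whether several cultures were pooled. There were therefore no replicates. The days served in their place, and the p-values below measure the spread around effects common to all days or all genotypes.

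Troponin sits on the thin filament of striated muscle, where it makes contraction depend on calcium. Troponin C (Tnn-c genes) binds calcium, troponin I (Tnn-i genes) holds actin and myosin apart until it does, and troponin T (Tnn-t genes) anchors the complex to tropomyosin. Fast fibres use Tnnt3, Tnni2 and Tnnc2, slow fibres use Tnnt1, Tnni1 and Tnnc1, and the heart uses Tnnt2, Tnnc1 and Tnni3. Embryonic muscle and cultured myotubes are known to carry cardiac and slow isoforms beside the fast ones. The series title links Fkbp5, an Hsp90 co-chaperone with prolyl isomerase activity, to myoblast differentiation, and troponin mRNAs are among the products of that process.

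Of the members, 5 had a promoter entry in the RefSeq table (build GRCm38.p6), with 7 windows between them, and 4 windows are shown because all 4 genes rose steeply with differentiation and differ in which muscle motifs they hold. Each is the 250 bases before an annotated start, read 5′ to 3′ on the strand of the gene. Capitals mark CAGCTG, an E-box of the kind bound by MyoD and myogenin, CACCTG, another E-box (CAGGTG on the other strand), and CATTCC, the M-CAT motif of Tead factors (GGAATG on the other strand). The Tnnt1 window is chr7:4515976-4516225 on the minus strand, that of Tnnt2 is chr1:135836084-135836333, that of Tnni1 is chr1:135799171-135799420 and that of Tnnc1 is chr14:31208062-31208311, the last 3 on the plus strand.
Tnnt1: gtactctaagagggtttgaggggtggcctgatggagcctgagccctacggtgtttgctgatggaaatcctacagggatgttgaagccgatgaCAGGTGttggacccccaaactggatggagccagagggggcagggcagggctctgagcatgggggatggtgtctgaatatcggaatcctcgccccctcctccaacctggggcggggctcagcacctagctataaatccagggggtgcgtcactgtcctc
Tnnt2: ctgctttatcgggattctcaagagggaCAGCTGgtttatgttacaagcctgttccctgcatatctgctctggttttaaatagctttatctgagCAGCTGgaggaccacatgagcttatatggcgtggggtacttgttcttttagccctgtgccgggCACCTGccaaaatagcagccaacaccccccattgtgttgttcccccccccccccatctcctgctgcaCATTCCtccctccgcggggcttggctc
Tnni1: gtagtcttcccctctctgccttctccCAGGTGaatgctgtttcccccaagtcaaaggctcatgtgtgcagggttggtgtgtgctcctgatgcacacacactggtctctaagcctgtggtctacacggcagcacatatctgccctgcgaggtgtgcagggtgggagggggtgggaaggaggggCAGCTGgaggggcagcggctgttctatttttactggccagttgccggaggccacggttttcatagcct
Tnnc1: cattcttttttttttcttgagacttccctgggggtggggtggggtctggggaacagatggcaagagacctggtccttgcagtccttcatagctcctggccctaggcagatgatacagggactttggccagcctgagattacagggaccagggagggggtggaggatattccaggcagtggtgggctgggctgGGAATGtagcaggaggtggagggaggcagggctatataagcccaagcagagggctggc

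The Tnnt2 window held the most marked motifs, with CAGCTG starting 223 and 157 bases before the RefSeq start at the window's end, CACCTG at 94 bases and CATTCC at 27 bases. Tnni1 held CAGCTG at 68 bases and CACCTG at 224 bases. Tnnt1 held only CACCTG, at 158 bases, with a TATAAA box at 30 bases, and Tnnc1 held only CATTCC, at 58 bases. Tnnc2 (window not shown) held CACCTG at 183 bases. The second Tnnt2 window held none of these motifs, and the second Tnni1 window overlapped the first. No marked match overlapped another. Of 32851 windows of 250 bases in the table, 13% held CAGCTG, 17.2% CACCTG, 12.6% CATTCC and 12.4% TATAAA on either strand, and the MEF2 and CArG motifs, searched by their consensus, were in 1.69% and 1.47% and in no window of a member. These starts differ from the outermost GENCODE starts that bound the gene spans given next, other than for Tnnc1. The matches describe the letters and carry no evidence of binding.

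In the files' build (mm10, which is GRCm38) the members lie in 5 places, from GENCODE mouse release 21. Tnni1 (ENSMUSG00000026418, chr1:135779434-135810989, plus strand) and Tnnt2 (ENSMUSG00000026414, chr1:135836354-135852260, plus strand) flank Lad1. Tnni2 (ENSMUSG00000031097, chr7:142441808-142444410, plus strand) and Tnnt3 (ENSMUSG00000061723, chr7:142498836-142516009, plus strand) flank Lsp1, so that both fast genes of the T and I subunits are neighbours. Tnnt1 (ENSMUSG00000064179, chr7:4504570-4516382, minus strand) lies 1922 bases from Tnni3, the cardiac troponin I gene. Tnnc1 (ENSMUSG00000091898, chr14:31208312-31211729, plus strand) and Tnnc2 (ENSMUSG00000017300, chr2:164777161-164779967, minus strand) stand alone.

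Libraries held 3932372 to 5568486 counted reads, a 1.42-fold range. Levels are in CPM, the count of a gene scaled to the same total in every library. A count of 0 allows up to 3 reads, which is 0.539 to 0.763 CPM, and this limit and the intervals below cover counting error only. The knockdowns lowered their targets. Fkbp5 was at 4.32, 3.21 and 4.32 CPM at days 0, 3 and 5 in the Fkbp5 knockdown against 20.3, 7.28 and 14.8 CPM in control cells (log2 fold change −1.72, SE 0.24, adjusted p = 0.00842). Fkbp4 was at 62.2, 27.5 and 24.2 CPM in the Fkbp4 knockdown against 243, 142 and 138 CPM (log2 fold change −2.28, SE 0.12, adjusted p = 1.97e-05). The Fkbp5 call was lost in 4 of 20 alternatives, without the Fkbp5 knockdown library of day 5 (adjusted p = 0.0536), without day 0 (0.0533), without day 5 (0.0934) and with no day term (1). The other target's mRNA differed by 0.06 and 0.17 on the log2 scale, adjusted p = 0.857 and 0.706. The 10 muscle markers were all read and summed to 1813 to 2071 CPM at day 0. Of the other lineages, Adipoq, Plin1, Cidec, Lep, Ibsp, Acan, Cd3e, Cdh5, Tie1 and the cardiac marker Nppa had no read in any library, and the 7 cardiomyocyte markers, Tnni3 among them, summed to 17.5 to 48.5 CPM. The 6 adipocyte markers summed to 5.09 to 13.2 CPM, the 7 osteoblast and chondrocyte markers to 77.3 to 112 CPM and the 8 immune and endothelial markers to 0.726 to 4.68 CPM. The 8 fibroblast and smooth muscle markers were all read and were far more abundant. Their sums were 652 to 1204 CPM at day 0 and 2335 to 3093 CPM at days 3 and 5. The Fkbp5 knockdown library of day 5 stood apart with 10.1% of its reads on the mitochondrial genome, against 1.78% to 5.01% in the others.

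Troponin mRNA rose steeply in all 3 genotypes as the cells differentiated. The 7 genes together took 0.0122% of the control reads at day 0, 0.459% at day 3 and 0.761% at day 5. Their share was 0.0124%, 0.266% and 0.508% with Fkbp5 knocked down, and 0.0202%, 0.44% and 0.749% with Fkbp4 knocked down. In bulk RNA a smaller share of differentiated cells and less troponin mRNA per cell cannot be told apart. By edgeR's quasi-likelihood test on all 9 libraries, all 7 genes were higher at day 3 than at day 0, where 26.4% of the 12844 genes tested were, and all 7 were higher at day 5 than at day 0, where 29.3% were. Their median log2 fold changes were 5.21 and 6.13, beside 0.00 and 0.01 over all genes. The plot of troponin levels by day shows the 3 genotypes for each gene.

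**Figure D1:**
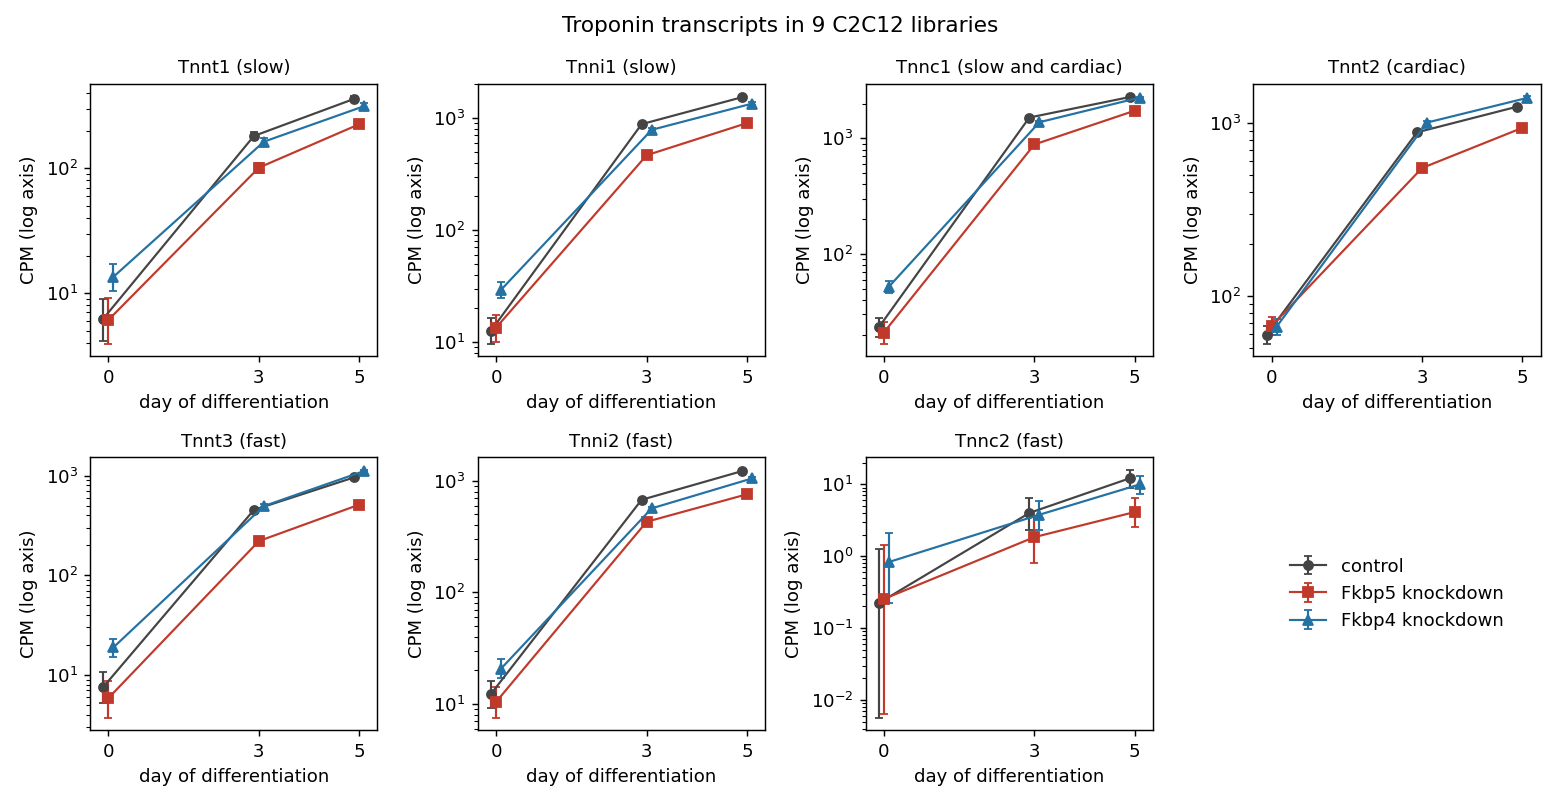
CPM (log axis) of each troponin gene against the day of differentiation, 1 point per library with its exact 95% counting interval, in control (circles), Fkbp5 knockdown (squares) and Fkbp4 knockdown (triangles). The Fkbp5 knockdown is the lowest of the 3 genotypes at days 3 and 5 for all 7 genes, and the Fkbp4 knockdown is the highest at day 0 for all but Tnnt2.

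Tnnt3, which encodes fast skeletal troponin T, had 34, 1933 and 3986 reads in the control at days 0, 3 and 5, or 7.58, 454 and 964 CPM. It stood at 5.85, 221 and 513 CPM in the Fkbp5 knockdown and at 18.9, 496 and 1117 CPM in the Fkbp4 knockdown. Every day 5 library was above every day 3 library, and every day 3 library above every day 0 library. The share of all genes with this order of libraries was not counted. Tnnt3 was 84.3-fold higher at day 5 than at day 0 (log2 fold change 6.40, SE 0.21, adjusted p = 1.12e-08), the largest of the 7 fitted values.

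Tnnt2, the cardiac troponin T that embryonic skeletal muscle also makes, was present before differentiation. It stood at 59.8, 884 and 1245 CPM in the control, at 67.1, 550 and 939 CPM in the Fkbp5 knockdown and at 66.5, 1007 and 1399 CPM in the Fkbp4 knockdown. The 939 CPM of day 5 in the Fkbp5 knockdown lay below the 1007 CPM of day 3 in the Fkbp4 knockdown. With TMM factors these were 998 and 988 CPM. On CPM scaled by TMM factors, the day 0 level of Tnnt2 in the control was already 4.76% of its day 5 level, against 0.779% to 1.83% for the other 6 genes. Its rise to day 5 was accordingly one of the smallest on the log2 scale, 4.21 (SE 0.19, adjusted p = 4.44e-08).

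Tnnt1, the slow troponin T, had 28, 771 and 1484 reads in the control, or 6.25, 181 and 359 CPM. It was at 6.1, 101 and 225 CPM in the Fkbp5 knockdown and at 13.5, 163 and 314 CPM in the Fkbp4 knockdown. Its levels at the 3 days did not overlap, and it was 35.6-fold higher at day 5 than at day 0 (log2 fold change 5.15, SE 0.21, adjusted p = 2.95e-08).

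Both inhibitory subunits rose side by side. Tnni1, the slow troponin I, was at 12.7, 880 and 1530 CPM in the control, 13.5, 465 and 900 CPM in the Fkbp5 knockdown and 29.4, 783 and 1342 CPM in the Fkbp4 knockdown. Tnni2, the fast troponin I, was at 12.3, 677 and 1225 CPM in the control, 10.4, 430 and 759 CPM in the Fkbp5 knockdown and 20.7, 567 and 1053 CPM in the Fkbp4 knockdown. For both genes the day 0 libraries were far below the others, and for both the day 5 value of the Fkbp5 knockdown exceeded the control's day 3 value by little. Their rises from day 0 to day 5 were 70.1-fold for Tnni1 (log2 6.13, SE 0.26) and 71.3-fold for Tnni2 (log2 6.16, SE 0.20), with adjusted p = 3.4e-08 and 1.12e-08.

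Tnnc1, the calcium-binding subunit of slow fibres and heart, was at 23.2, 1515 and 2278 CPM in the control, at 20.9, 886 and 1736 CPM in the Fkbp5 knockdown and at 52, 1380 and 2255 CPM in the Fkbp4 knockdown. It was 40.4-fold higher at day 3 than at day 0 (log2 fold change 5.34, SE 0.25, adjusted p = 1.08e-07). Tnnc2, the fast troponin C, was read 1, 17 and 50 times in the control, 1, 8 and 20 times in the Fkbp5 knockdown and 4, 21 and 47 times in the Fkbp4 knockdown. These are 0.223, 3.99 and 12.1 CPM, 0.254, 1.84 and 4.11 CPM, and 0.829, 3.77 and 9.96 CPM. Its rise from day 0 to day 5 (log2 fold change 4.24, SE 0.40, adjusted p = 7.69e-06) starts from 1 to 4 reads per library.

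Most members rose further after day 3. By the edgeR fit 6 of the 7 were higher at day 5 than at day 3, where 3.77% of all genes tested were, with a median log2 fold change of 0.89 beside 0.00 over all genes. The fast gene Tnnt3 rose 2.28-fold (log2 1.19, SE 0.16, adjusted p = 0.0025) and Tnnt1 2.09-fold (log2 1.06, SE 0.16, adjusted p = 0.00409). Tnni2, Tnni1 and Tnnc1 rose by 0.89, 0.88 and 0.79 on the log2 scale, and Tnnc2 by 1.44 (SE 0.28, adjusted p = 0.0151). Tnnt2 did not pass, at 0.60 (SE 0.16, adjusted p = 0.0571). On the same TMM scale, 71.7% of the control's day 5 level of Tnnt2 was already present at day 3, and 67.1% of that of Tnnc1, against 47.5% for Tnnt3 and 33.3% for Tnnc2. Only 2 members passed when the Fkbp4 knockdown library of day 3 or the control library of day 5 was left out, and 3 without the control library of day 3.

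The Fkbp5 knockdown libraries of days 3 and 5 held less troponin mRNA than the control libraries of the same days. Tnnt3 was the member whose difference common to the 3 days passed the test. It was 1.79-fold lower (log2 fold change −0.84, SE 0.18, adjusted p = 0.0391), where 1.4% of the 12844 genes tested were lower. All 7 members had a negative log2 fold change, with a median of −0.62 beside 0.00 over all genes. Tnnt1 and Tnni1 were both at −0.62 (SE 0.18 and 0.21, adjusted p = 0.116 and 0.187), Tnni2 at −0.55 (SE 0.16, adjusted p = 0.127), Tnnc1 at −0.44 (SE 0.21, adjusted p = 0.349), Tnnt2 at −0.28 (SE 0.17, adjusted p = 0.47) and Tnnc2 at −1.25 (SE 0.34, adjusted p = 0.101). The Tnnt3 call was fragile. It was lost when the Fkbp4 knockdown library of day 3 or day 5, any Fkbp5 knockdown library, or the control library of day 3 or day 5 was left out, with adjusted p from 0.0533 to 0.235 and log2 fold changes from −0.67 to −0.91. Without the day 0 libraries 3 members passed, Tnnt3 (−0.94, adjusted p = 0.024), Tnnt1 (−0.71, adjusted p = 0.0433) and Tnni1 (−0.81, adjusted p = 0.0436).

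The pairs of libraries from 1 day give the ratio at each day, with 1 library on each side. They cannot show at which day an effect of the knockdown was present. At day 0 the exact 95% counting interval of the log2 ratio of Fkbp5 knockdown over control included 0 for all 7 genes. The ratios ran from −0.31 [−1.14, 0.49] for Tnnt3 to 0.25 [−6.04, 6.54] for Tnnc2, which had 1 read in each. The Tnnt3 interval, on 23 against 34 reads, also included that gene's day 3 ratio given below, so a difference at day 0 is not excluded. At day 3 the interval lay below 0 for 6 of 7, which are the 6 with at least 50 reads in the larger library, where it did for 17.5% of all genes with as many reads. Tnnt3 was at −1.06 [−1.18, −0.95], or 2.09-fold lower, and was the 1 member past 2-fold with at least 50 reads in the larger library, a limit that 1.2% of genes passed downward. Tnni1 followed at −0.95 [−1.03, −0.87], Tnnt1 at −0.87 [−1.04, −0.69], Tnnc1 at −0.80 [−0.86, −0.74], Tnnt2 at −0.71 [−0.79, −0.64] and Tnni2 at −0.68 [−0.77, −0.60], with Tnnc2 at −1.15 [−2.57, 0.14].

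At day 5 all 7 intervals lay below 0, where 18.6% of genes with at least 50 reads did. The gap was smaller than at day 3 for Tnnt1, Tnnt2, Tnnt3, Tnni1 and Tnnc1, with TMM factors and on library totals alone. For Tnni2 it was smaller with TMM factors but not on library totals (−0.66 at day 3 and −0.69 at day 5). Tnnt3 was at −0.82 [−0.89, −0.75], Tnni1 at −0.67 [−0.73, −0.62], Tnni2 at −0.60 [−0.66, −0.54] and Tnnt1 at −0.58 [−0.70, −0.47]. Tnnt2 and Tnnc1, the members that heart also uses, were nearest to the control at −0.31 [−0.37, −0.26] and −0.30 [−0.34, −0.26]. Tnnc2, on 20 against 50 reads, was the 1 member past 2-fold, at −1.46 [−2.29, −0.69], where 1.5% of genes were. These intervals leave out the variation between cultures, which 1 library per group does not show.

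**Figure D2:**
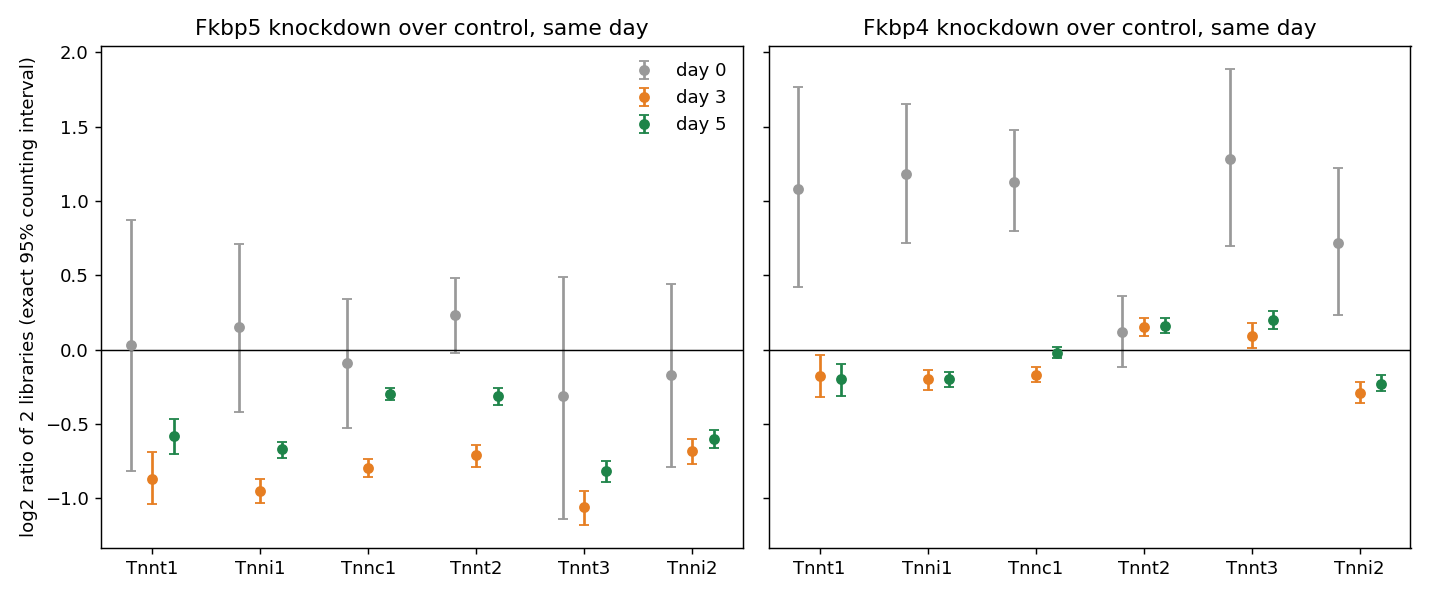
Log2 ratio of knockdown over control for libraries of the same day, with exact 95% counting intervals, for 6 members (Tnnc2, with 1 to 50 reads per library, is left out); left, Fkbp5 knockdown, right, Fkbp4 knockdown. On the left all points of days 3 and 5 lie below 0, and on the right 5 of the 6 intervals of day 0 lie above 0.

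Set against the control's own time course, the Fkbp5 knockdown at day 5 lay between the control's day 3 and day 5 levels for all 7 members. The share of all genes that did so was not counted. In CPM without TMM factors, the counting intervals of Fkbp5 knockdown day 5 and control day 3 overlapped for Tnni1, Tnnt2 and Tnnc2. Those of Tnni1 were 900 [874, 927] and 880 [852, 909] CPM, and those of Tnnc2 4.11 [2.51, 6.35] and 3.99 [2.32, 6.39] CPM. In CPM scaled by TMM factors the Fkbp5 knockdown at day 5 reached 56.7% of the control's day 5 level for Tnnt3, 62.8% for Tnni1, 66.1% for Tnni2, 66.8% for Tnnt1, 80.4% for Tnnt2 and 81.3% for Tnnc1. At day 3 the same genes had stood at 47.9%, 51.9%, 62.3%, 54.9%, 61.1% and 57.4% of the control's day 3 level. The summed muscle markers, in CPM without TMM factors, were also lower in the Fkbp5 knockdown. They stood at 7538 CPM against 8975 CPM in the control at day 3 and at 10899 against 14936 CPM at day 5. Unlike that of most troponins, the gap of this sum to the control did not narrow from day 3 to day 5. Gene by gene the median shift of these markers was smaller than that of the troponins (−0.62). The fast fibre genes and the slow fibre and cardiac genes described below had medians near that of the troponins, at −0.58 and −0.63. In the edgeR fit 8 of the 10 markers had a negative log2 fold change and 2 a positive one, with a median of −0.21. Only 1 of them was called lower, where 1.4% of all genes were. The 8 fibroblast and smooth muscle markers summed to 652 against 1204 CPM at day 0, 2485 against 3093 CPM at day 3 and 2807 against 2440 CPM at day 5, and their part in the result was not tested. With the mitochondrial genes left out, Tnnt3 was at −0.85 (adjusted p = 0.0343).

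The Fkbp4 knockdown had no member past the threshold in either direction, where 0.265% of genes were higher and 0.825% lower, and none with an unadjusted p under 0.05 by edgeR's quasi-likelihood test. DESeq2 and limma voom also called none. The median log2 fold change of the members was 0.12, beside 0.02 over all genes. Tnnt3 was at 0.37 (SE 0.17, adjusted p = 0.318), Tnnc1 at 0.25 (SE 0.21, adjusted p = 0.6), Tnnt2 at 0.15 (SE 0.17), Tnni1 at 0.12 (SE 0.21), Tnnt1 at 0.01 (SE 0.17), Tnni2 at −0.04 (SE 0.16) and Tnnc2 at −0.08 (SE 0.31). At days 3 and 5 the log2 ratios to the control of the same day lay between −0.29 and 0.20 for all 7 genes. At day 3 the counting interval lay below 0 for 4 members and above 0 for 2, where 18% and 16.5% of genes with at least 50 reads did. At day 5 it lay below 0 for 3 and above 0 for 2, where 16.6% and 13.3% of genes did.

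At day 0 all 7 members were higher in the Fkbp4 knockdown library than in the control library, 5 of them beyond counting error. Before differentiation Tnnt3 had 91 reads against 34 in the control (log2 ratio 1.28 [0.70, 1.89]), Tnni1 142 against 57 (1.18 [0.72, 1.65]), Tnnc1 251 against 104 (1.13 [0.80, 1.48]) and Tnnt1 65 against 28 (1.08 [0.42, 1.77]). These 4 of 7 members passed 2-fold with at least 50 reads, where 0.646% of genes did upward, and 5 of 7 intervals lay above 0, where 18.6% of genes did. Tnni2 was at 0.72 [0.23, 1.22], on 100 against 55 reads. Tnnt2, the member with the most reads at that day, was at 0.12 [−0.12, 0.36], and Tnnc2 at 1.86 [−1.48, 7.48] on 4 against 1 reads. The summed muscle markers were 2071 CPM in this library against 1928 CPM in the control, and the fibroblast and smooth muscle markers 1099 against 1204 CPM. Their part in the result was not tested. There is 1 library on each side and no test of this difference between cultures.

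Whether a knockdown's effect changed between day 0 and the later days was asked with an interaction term, in a fit of 13372 genes that left 2 residual degrees of freedom. No member passed in the Fkbp4 knockdown, where 0.015% of genes were called lower, or in the Fkbp5 knockdown, where again 0.015% were, and DESeq2 and limma voom also called none. For Fkbp4, 5 of 7 members had an unadjusted p under 0.05, as did 396 of the 13372 genes in either direction, with Tnni1 at −1.33 (SE 0.28, unadjusted p = 0.00115, adjusted p = 0.547), Tnnt1 at −1.22, Tnnc1 at −1.18, Tnnt3 at −1.08 and Tnni2 at −0.93, whereas Tnnt2 was at 0.08. For Fkbp5, 2 of 7 members and 604 of the 13372 genes did, the members being Tnni1 at −0.96 (SE 0.30, unadjusted p = 0.0115, adjusted p = 0.962) and Tnnt2 at −0.74 (SE 0.27, unadjusted p = 0.0236, adjusted p = 0.962). The other 5 lay between −0.46 and −1.57. One Fkbp4 interaction passed without the Fkbp5 knockdown library of day 3, and 2 without that of day 5.

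Compared directly, the Fkbp5 knockdown had less troponin mRNA than the Fkbp4 knockdown. Of the 7 members 4 were lower, where 6.02% of genes were, with a median of −0.69 beside −0.01 over all genes. Tnnt3 was 2.31-fold lower (log2 fold change −1.21, SE 0.18, adjusted p = 0.00299), Tnni1 was at −0.74 (SE 0.22, adjusted p = 0.0481), Tnnt1 at −0.63 (SE 0.18, adjusted p = 0.0454) and Tnnc2 at −1.17 (SE 0.34, adjusted p = 0.049). Tnnc1 at −0.69 (adjusted p = 0.0587), Tnni2 at −0.51 (adjusted p = 0.0647) and Tnnt2 at −0.42 (adjusted p = 0.124) did not pass. Tnnt3 passed without any 1 library, with log2 fold changes from −1.07 to −1.33, and lost its call among the alternatives only with no day term. Only 1 member passed when the control library of day 5, or any knockdown library other than that of Fkbp5 at day 0, was left out, and 2 without that one. The values common to the 3 days include day 0, when the Fkbp4 knockdown library stood above the control for most members. In same-day pairs the log2 ratio went from −1.22 at day 0 to −0.28 at day 5 for Tnnc1. It went from −1.03 to −0.47 for Tnni1, from −1.05 to −0.38 for Tnnt1 and from −1.59 to −1.02 for Tnnt3. Tnnt2 went the other way, from 0.11 to −0.47. This comparison uses the same knockdown libraries as those against the control.

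**Figure D3:**
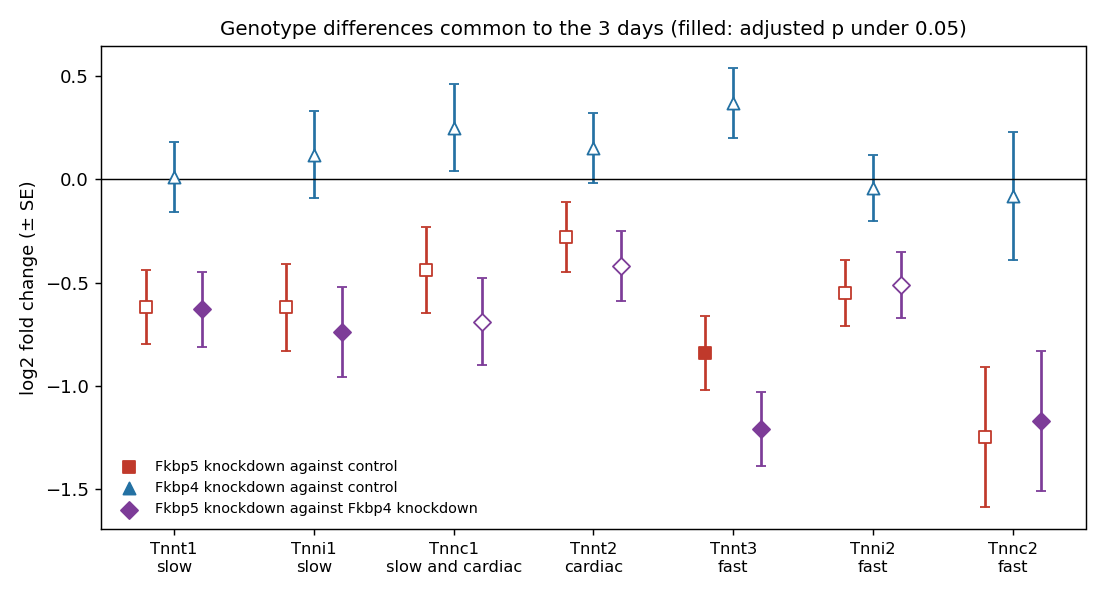
Log2 fold change (± SE) of each troponin gene for 3 genotype contrasts, as the difference common to days 0, 3 and 5 in the edgeR fit of 9 libraries; filled symbols have an adjusted p under 0.05. Tnnt3 is filled in both contrasts of the Fkbp5 knockdown (−0.84 and −1.21), and no member is filled for the Fkbp4 knockdown against control.

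Fast and slow isoforms did not keep one ratio in troponin T. Per kilobase of exon (the union of all annotated exons of a gene), Tnnt3 made up 31.2% [23.6, 39.4] of troponin T in the control at day 0, 59.4% [58.1, 60.7] at day 3 and 65.3% [64.4, 66.2] at day 5. In the Fkbp5 knockdown it made up 24.4% [16.8, 33.1], 54.5% [52.6, 56.3] and 59.2% [58.1, 60.4]. In the Fkbp4 knockdown it made up 44.8% [38.9, 50.5], 60.6% [59.5, 61.6] and 68.6% [67.9, 69.4]. The fast share grew with the day in each genotype, and at days 3 and 5 the Fkbp5 knockdown lay below the control beyond counting error. The cardiac share, that of Tnnt2, went from 50.3% to 23.6% and 17.2% in the control, from 57.3% to 27.7% and 22.1% in the Fkbp5 knockdown, and from 32.3% to 25.1% and 17.5% in the Fkbp4 knockdown. The log2 ratio of Tnnt3 to slow Tnnt1 differed from the control by −0.34, −0.20 and −0.23 at days 0, 3 and 5 in Fkbp5 knockdown cells, and by 0.21, 0.28 and 0.41 in Fkbp4 knockdown cells, with no test.

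The size of these shares depends on the length given to each gene, because the exon union of Tnnt2 counts 7752 bases and its longest coding transcript 1200. With the longest coding transcript as length, the Tnnt3 share at days 0, 3 and 5 was 11.2%, 31.7% and 39.4% in the control, 8.07%, 27% and 32.3% with Fkbp5 knocked down, and 20.4%, 31.6% and 41.5% with Fkbp4 knocked down. The rise with the day and the lower share in the Fkbp5 knockdown were there with both lengths, and ratios of the same genes between libraries do not depend on length.

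**Figure D4:**
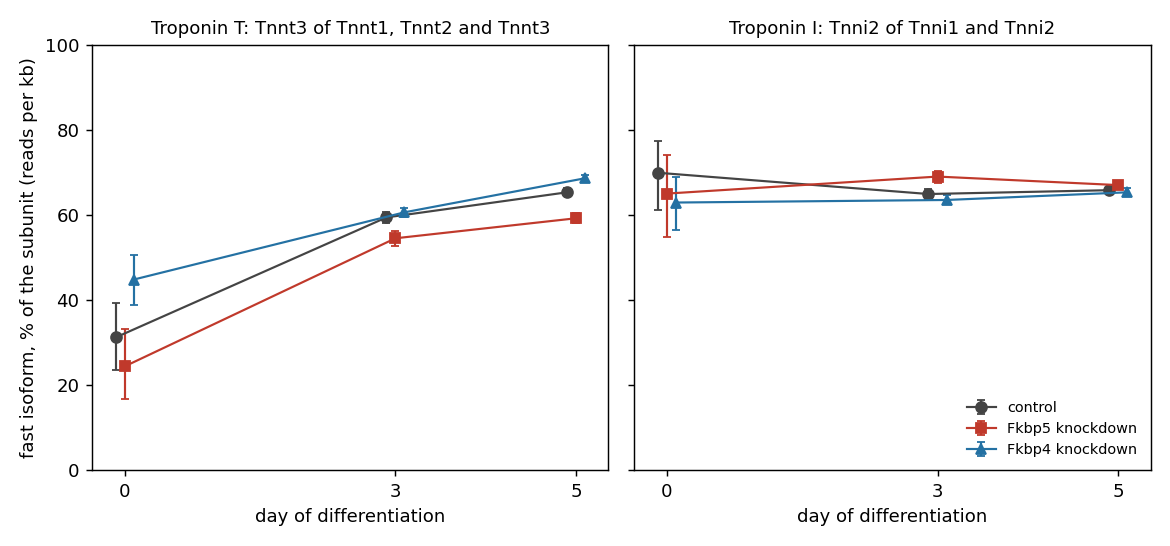
Share of the fast isoform in troponin T (left) and troponin I (right), in percent of the subunit's reads per kilobase of exon union, against the day, 1 point per library with its exact 95% counting interval. The fast share of troponin T lies between 24.4% and 44.8% at day 0 and between 59.2% and 68.6% at day 5, whereas that of troponin I lies between 62.9% and 69.9%.

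Troponin I kept nearly the same mix. Tnni2 made up 69.9% [61.1, 77.4], 64.9% [63.8, 66] and 65.8% [65, 66.6] of troponin I in the control. It made up 65% [54.7, 74], 69% [67.6, 70.3] and 67% [66, 67.9] with Fkbp5 knocked down. With Fkbp4 knocked down it made up 62.9% [56.5, 68.8], 63.5% [62.5, 64.6] and 65.3% [64.5, 66.2]. At day 3 the fast share of troponin I thus exceeded the control's in Fkbp5 knockdown cells, the opposite sign to troponin T in the same libraries. With coding lengths the 9 shares lay between 51.3% and 59.1%.

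Troponin C was almost all of the slow and cardiac form, as far as these counts can tell. Tnnc2 made up 0.269% to 2.03% of troponin C per kilobase over the 9 libraries. Its count is uncertain, because 592 of its 800 exon bases also lie in the last exon of Ube2c (ENSMUSG00000001403, chr2:164777190-164778822, plus strand), a cell cycle ubiquitin-conjugating enzyme gene on the opposite strand. The library kit, TruSeq RNA v2, does not mark strand, so reads of the 2 genes cannot be told apart there, and how reads over 2 genes were counted is not given in the sources used here. Of the 700 bases of the coding transcript of Tnnc2, 84.6% are covered, in 5 of 6 exons, which leaves 108 bases of its own. Ube2c itself fell with differentiation, from 108 to 50.7 and 27.3 CPM in the control, from 122 to 92.5 and 20.6 CPM in the Fkbp5 knockdown, and from 140 to 43.8 and 37.3 CPM in the Fkbp4 knockdown, while Tnnc2 rose. If the 108 bases alone had been counted, and all reads touching them kept, the share of Tnnc2 would be 1.36% to 9.62%. These bases are the 79 of the first exon and the far end of the last. Reads that reach from them into shared bases may not have been counted, so this range is no upper limit. The part of the overlap in the low count was not tested. No other member overlaps an exon of another gene, and the share of 31-base words a member shares with other genes was 0% to 1.69% for the T and I genes, 6.27% for Tnnc1 and 59% for Tnnc2.

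**Figure D5:**
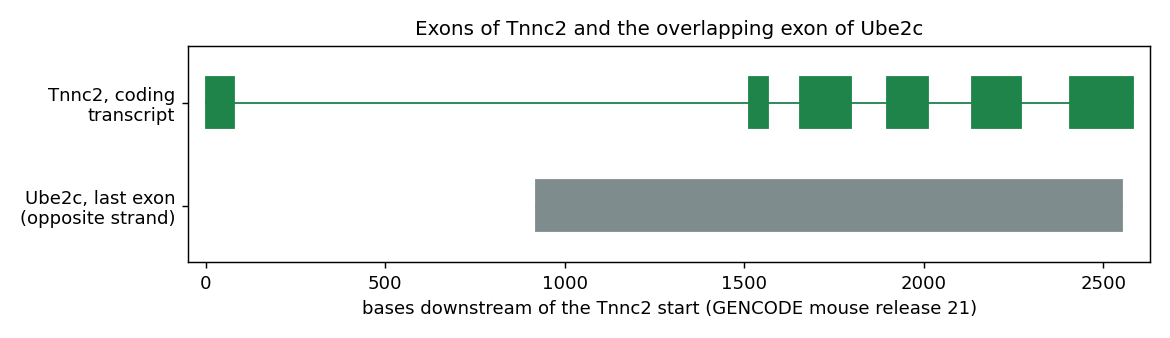
Exons of the coding transcript of Tnnc2 (top) and the last exon of Ube2c on the opposite strand (bottom), against the distance in bases downstream of the Tnnc2 start, drawn to scale. The Ube2c exon, 1633 bases long, touches 5 of the 6 Tnnc2 exons.

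Ordered by CPM per kilobase of exon union, the control at day 5 had Tnnc1 at 2189, Tnni2 at 818, Tnnt3 at 609, Tnni1 at 425, Tnnt1 at 163, Tnnt2 at 161 and Tnnc2 at 15.1. Tnnc1 was the highest in all 9 libraries and Tnnc2 the lowest. With coding lengths the order was Tnnc1 at 3160, Tnni2 at 1595, Tnni1 at 1330, Tnnt2 at 1038, Tnnt3 at 894, Tnnt1 at 339 and Tnnc2 at 17.3. Tnnt2 then had the highest level at day 0 in the control (49.8, against 32.2 for Tnnc1) and in the Fkbp5 knockdown (55.9 against 28.9). In the control at day 5 the place of Tnnt2 relative to Tnnt1 and Tnnt3, and that of Tnni1 relative to Tnnt3, therefore rest on the choice of length. Tnni1 was above Tnnt1 and Tnnt2, and Tnnt3 above Tnnt1, with both lengths. With 1 library per group no spread between cultures is known for these levels. Cardiac Tnni3, the remaining troponin gene, was read 2 to 16 times per library and was higher at day 5 than at day 0 (log2 fold change 2.08, SE 0.47, adjusted p = 0.00326).

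Over the 9 libraries the members followed nearly one course, which the days dominate. Pearson correlations of log2 CPM between members other than Tnnc2 were 0.989 to 0.999. Among 10895 other genes with a mean of at least 5 CPM, the 3 most like Tnnt3 were Cacnb1, a calcium channel subunit, Chrng, the fetal acetylcholine receptor subunit, and Myh3, embryonic myosin (0.999, 0.998 and 0.998). Those most like Tnnt1 were skeletal actin Acta1 and the calcium channel genes Cacnb1 and Cacna1s (0.998, 0.996 and 0.996). Tnni1 was most like Casq2, Rap1gap2 and Acta1, Tnni2 most like Rap1gap2, Tmod1 and Acta1, and Tnnc1 most like the myosin light chain gene Mylpf, Rap1gap2 and Acta1 (0.998 to 0.999). Tnnt2 was most like Igf2, a growth factor of myoblast differentiation, Otog and Klf4 (each 0.996), and Tnnc2 most like Scn4a, Mypn and Stat5a (0.992, 0.987 and 0.986). As many as 140 to 188 genes reached 0.98 with a member, and 17 with Tnnc2, so the rank of a single gene says little.

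The other genes of the thin filament moved with the troponins in part. Of 14 tested partners, among them actins, tropomyosins and leiomodins, 10 rose and 2 fell from day 0 to day 3, where 26.4% and 25.8% of all genes did. The rise was led by the filament nucleator Lmod2 (log2 fold change 6.29, SE 0.37) and cardiac actin Actc1 (6.12, SE 0.24). The tropomyosin genes split, with Tpm2 at 1.96 and Tpm1 at 0.60 higher, and Tpm3 at −0.78 and Tpm4 at −1.18 lower. Between days 3 and 5, 8 rose, where 3.77% of all genes did, and Tpm4 alone fell, at −0.44, where 2.39% did. The nebulin gene Neb rose by 1.43 and Acta1 by 1.12. In the Fkbp5 knockdown 2 of 14 were lower than in the control, where 1.4% of all genes were, with a median of −0.38. These 2 were Actc1 (−1.03, SE 0.20, adjusted p = 0.0324) and Lmod3 (−0.67, SE 0.13, adjusted p = 0.0285). In the Fkbp4 knockdown none passed, with a median of 0.15.

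Fast and slow fibre genes were both among those reduced when Fkbp5 was knocked down. Of 14 tested fast fibre genes 4 were lower than in the control, where 1.4% of all genes were, with a median of −0.58. They were fast myosin Myh4 (−3.38, SE 0.26, adjusted p = 0.00019), the creatine kinase gene Ckm (−1.10, SE 0.14, adjusted p = 0.00458), the calcium pump gene Atp2a1 (−1.03, SE 0.23, adjusted p = 0.0467) and Actn3 (−0.77, SE 0.12, adjusted p = 0.0108). Of 15 tested slow fibre and cardiac genes 4 were lower too, beside the same 1.4% of all genes, with a median of −0.63. They were slow myosin Myh7 (−1.95, SE 0.29, adjusted p = 0.0108), Mybpc1 (−1.69, SE 0.22, adjusted p = 0.00749), Myoz2 (−1.08, SE 0.21, adjusted p = 0.0294) and Myh7b (−0.98, SE 0.21, adjusted p = 0.0425). The Tnnt3 difference, −0.84, was smaller in size than that of Myh4 or Myh7. In the Fkbp4 knockdown none of the fast, slow and cardiac genes passed, with medians of 0.35 and 0.29. Against the Fkbp4 knockdown, the Fkbp5 knockdown was lower in 6 fast and 7 slow or cardiac genes, where 6.02% of all genes were. Myh4 (−4.00) and Atp2a1 (−1.48) led the fast genes, and Myh7 (−2.45) and Mybpc1 (−2.03) the slow or cardiac ones. Mb, the myoglobin gene, was higher (1.60), where 6.83% of all genes were.

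Of 18 tested transcription factors of muscle and fibre type, 12 were higher at day 3 than at day 0, where 26.4% of all genes were. Myog (3.83, SE 0.28) and Mef2c (2.96, SE 0.28) led these, and Eya1 was lower (−0.92), where 25.8% of all genes were. In the Fkbp5 knockdown 3 of 18 were lower than in the control, where 1.4% of all genes were. They were Tead4 (−0.75, SE 0.12, adjusted p = 0.014), a factor of the family that binds M-CAT motifs, Eya4 (−0.65, SE 0.14, adjusted p = 0.0391), a transcriptional co-activator, and Mef2d (−0.40, SE 0.09, adjusted p = 0.0467). Against the Fkbp4 knockdown 7 of 18 were lower, where 6.02% of all genes were, with Tead4 at −0.63 and Six4 at −0.59 the furthest. None passed in the Fkbp4 knockdown against control, with a median of 0.09.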

How the data were processed

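The deposited values are the authors' raw counts, 1 per Ensembl gene, for each of the 9 libraries. Per the submitters' processing notes, CASAVA 1.8, HISAT2 2.0.2, Subread and featureCounts 1.4.6 were used with mm10. Which annotation was used, and how reads over several genes were treated, is not given in the sources used here. Of 47728 identifiers, 47309 matched GENCODE mouse release 21, and the rest held at most 0.0188% of a library's reads.

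CPM are counts scaled to a common library total. Counts were fitted with edgeR 4.0.16 (R 4.3.3): filterByExpr, TMM (factors 0.9415 to 1.037), genotype and day as additive terms, quasi-likelihood test, two-sided, Benjamini-Hochberg adjustment over 12844 genes, called at an adjusted p under 0.05 (4 residual degrees of freedom; the coefficient of biological variation was 0.126). SE was derived from the log2 fold change and its F value. Pair ratios use TMM-scaled totals and exact 95% intervals, computed with scipy 1.17.1. The scripts were tested on simulated data.

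The members and gene lists were chosen with earlier results of these data known. Named were the members, Tnni3, the targets, up to 4 called genes per list and comparison by size of change (mean CPM 5 or more), and the 3 genes most correlated with each member. Ube2c, Mb, Eya1 and tropomyosin genes outside that rule were named after their values were seen. DESeq2 1.42.0, limma 3.58.1, other scalings and filters, and leaving out libraries or days were alternatives. A pair of gene lengths were added after seeing the data.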

Additional observations from a re-analysis of the deposited data

How the results depend on the processing

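Over 1329 recomputed log2 fold changes of members and targets, none that was called changed sign, 101 calls were lost and 36 gained. All 7 members stayed higher at day 3 and at day 5 than at day 0 in every alternative run. For the Fkbp5 knockdown against control (1 member lower), the count was 2 with DESeq2, 6 with no filter on low counts, 3 without day 0, and 0 without day 3, without day 5 or with no day term. Leaving out 1 library at a time gave 0 to 3. For the Fkbp5 against the Fkbp4 knockdown (4 lower) it was 7 with no filter, 1 without day 3, 1 without day 5, 0 with no day term, and 1 to 6 without 1 library. For day 5 against day 3 (6 higher) it was 3 with limma voom, 3 without all Fkbp4 knockdown libraries, 0 with no genotype term, and 2 to 7 without 1 library. For the Fkbp4 interaction (0 lower) it was 2 with no filter and 0 to 2 without 1 library. The cause was not tested, other than that a fit without the day or genotype term leaves that variation in the error. Without TMM factors the day 5 log2 ratio of Tnnt3 in the Fkbp5 knockdown was −0.91. An interaction could not be fitted without the day 0 library of the control or of the knockdown it concerns. No paired analysis was possible because there is 1 library per genotype and day and the labels carry no replicate numbers. Depth limits Tnnc2, with 1 to 50 reads, and the day 0 ratios of the other members.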
